A study of Homo sapiens with 8 samples.

Results

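The Notch genes described here were 10 of the 60676 genes in the count table: the receptors NOTCH1, NOTCH2 and NOTCH3, the ligands JAG1, JAG2 and DLL3, the nuclear co-activator MAML2, and the transcription factors HES1, HES6 and HEY1. They were taken by name, with earlier results of these data known, and each was found through its Ensembl identifier. RNA-seq counts came from 8 libraries of aggregates of IGR-N91, a human neuroblastoma (NB) cell line derived from a bone marrow metastasis, so all groups share 1 line and its genotype. Aggregates formed in hanging drops were kept in control medium, in medium conditioned by chick ganglia of embryonic day 8, either sympathetic (SG, giving E8-cSGcm) or dorsal root (DRG, giving E8-cDRGcm), or in medium conditioned by SG of mouse embryos at E15.5 (E15.5-mSGcm), with 2 libraries per group. The sample labels write GS where SG is used here. They give 20 h of exposure, and the design text of the series gives 24 h. The ganglion-conditioned media were compared with control medium to ask how sympathetic and sensory ganglia act on NB cells.

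Notch signalling passes between touching cells. A Jagged or Delta ligand on one cell pulls on a Notch receptor on its neighbour, proteases cut the receptor, and the freed intracellular domain enters the nucleus, where it joins the DNA-binding protein RBPJ and a Mastermind co-activator such as MAML2 and switches on HES and HEY genes. HES1 and HEY1 encode repressors that hold back neuronal differentiation. HES6 is an atypical family member that opposes HES1, and DLL3 is an atypical ligand that stays largely inside the cell. In the sympathoadrenal lineage and in NB, Notch genes have been linked to the choice between noradrenergic and mesenchymal states.

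Sequence before the transcription start was looked at for the letters that RBPJ reads. RefSeq promoters on GRCh38.p14 were matched by symbol for 8 of the 10 genes (not DLL3 and HEY1). Over windows of 250 bases before the start, the RBPJ core TGGGAA was searched on both strands, the reverse being TTCCCA. HES1 was the only one of the 8 that held it, with 2 copies on the gene's own strand, at 84 to 79 and at 70 to 65 bases before the start. The first of these is also the longer form GTGGGAA. Of all 35116 promoters, 20.8% held at least 1 TGGGAA in this window and 2.90% at least 2. The HES1 window, at chr3:194135898-194136147 on the plus strand, is shown because HES1 is the classic Notch target, with TGGGAA in capitals. The windows of NOTCH3, at chr19:15200996-15201245 on the minus strand, and JAG2, at chr14:105168777-105169026 on the minus strand, are shown because these genes moved in the same directions over the 3 media. NOTCH2 and HEY1 did so too. Neither the NOTCH3 nor the JAG2 window held TGGGAA. Their capitals mark the GC box GGGCGG or its reverse CCGCCC, with 5 matches in NOTCH3, the last 2 of which overlap, and 2 in JAG2. The NOTCH2 window, not shown, held 1 match. A GC box stood in 42.6% of all promoters and in the windows of 7 of the 8 genes. All windows read from 5′ to 3′ along the gene.
HES1: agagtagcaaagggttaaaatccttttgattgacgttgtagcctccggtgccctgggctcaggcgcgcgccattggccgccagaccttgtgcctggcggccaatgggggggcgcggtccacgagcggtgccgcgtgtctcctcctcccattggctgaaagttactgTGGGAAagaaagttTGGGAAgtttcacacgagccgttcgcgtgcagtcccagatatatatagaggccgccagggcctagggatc
NOTCH3: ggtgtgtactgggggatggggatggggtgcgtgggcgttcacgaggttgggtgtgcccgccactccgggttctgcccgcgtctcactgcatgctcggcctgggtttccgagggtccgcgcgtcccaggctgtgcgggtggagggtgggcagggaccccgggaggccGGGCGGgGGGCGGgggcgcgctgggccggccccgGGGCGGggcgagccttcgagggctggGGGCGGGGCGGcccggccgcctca
JAG2: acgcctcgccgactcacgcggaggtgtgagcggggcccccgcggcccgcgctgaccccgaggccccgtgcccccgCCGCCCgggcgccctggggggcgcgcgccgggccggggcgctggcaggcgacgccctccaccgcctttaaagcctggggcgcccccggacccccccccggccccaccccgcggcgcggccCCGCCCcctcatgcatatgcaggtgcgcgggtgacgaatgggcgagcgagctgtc
The windows were 78.0% G and C in NOTCH3, 81.6% in JAG2 and 59.2% in HES1. A match of letters describes the window and does not show that a factor binds it.

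Library totals ran from 12286211 to 15060744 counts in the control and chick groups and were 7930765 and 8937397 in E15.5-mSGcm. Mitochondrial genes took 4.65 to 6.22% of counts in the first 6 libraries and 7.03 to 7.46% in the E15.5-mSGcm libraries. Levels are given as CPM, counts scaled to the same total in each library, after TMM normalization, which brings most genes to a shared level between libraries. A gene was called higher or lower at an adjusted p under 0.05 with a fold change of at least 1.5, by edgeR's quasi-likelihood test over 16680 genes that passed the filter on low counts, 9 of the 10 Notch genes among them. Nothing in the labels says whether the 2 libraries of a group came from separate cultures, so p-values measure the spread between these libraries, which may be technical. In bulk RNA, a change in the share of cells that use a gene and a change in its level per cell cannot be told apart. All 9 noradrenergic markers, HAND2 and GATA3 among them, were present, with summed levels of 1509 to 1530 CPM in control and 1077 to 1292 CPM over the 6 conditioned libraries. The 6 fibroblast and mesenchymal markers were present too, at a summed 532 to 690 CPM over all libraries. In E15.5-mSGcm 2 of the 6 were called higher and 1 lower than in control: COL1A2 went from a mean of 3.11 to 12.5 CPM, DCN from 2.76 to 13.6 and COL1A1 from 106 to 30.2. In E8-cDRGcm DCN was called lower (1.70 CPM). Markers of Schwann cells and glia summed to at most 1.04 CPM, with SOX10 and FOXD3 at 0, those of endothelium to at most 1.07 CPM (3 of 4 markers matched, CDH5 at 0) and those of blood cells to at most 1.79 CPM, with CD3E at 0. The part of the noradrenergic and mesenchymal genes in the results was not tested.

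The receptor RNAs of the aggregates were NOTCH2 and NOTCH3, and the most abundant ligand RNA was JAG1. To compare genes with each other, CPM was divided by exon length in kb. Exon length was the union of all annotated exons of a gene, which can exceed that of the transcripts in use. The order of genes and the shares given below depend on this choice, which was not varied. In control medium JAG1 stood first at 22.6 ± 0.82 CPM per kb (SD, n = 2), followed by JAG2 at 7.29 ± 0.49. HES1 (6.41 ± 0.46), NOTCH3 (6.38 ± 0.29), HES6 (5.54 ± 0.31), NOTCH2 (5.43 ± 0.26), DLL3 (5.07 ± 0.43) and MAML2 (4.57 ± 0.44) followed. Of these neighbours, HES1 and NOTCH3, HES6 and NOTCH2, and NOTCH2 and DLL3 lay no further apart than the larger of their SDs. HEY1 stood lower, at 3.18 ± 0.15 CPM per kb. NOTCH1 was close to absent.

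**Figure D1:**
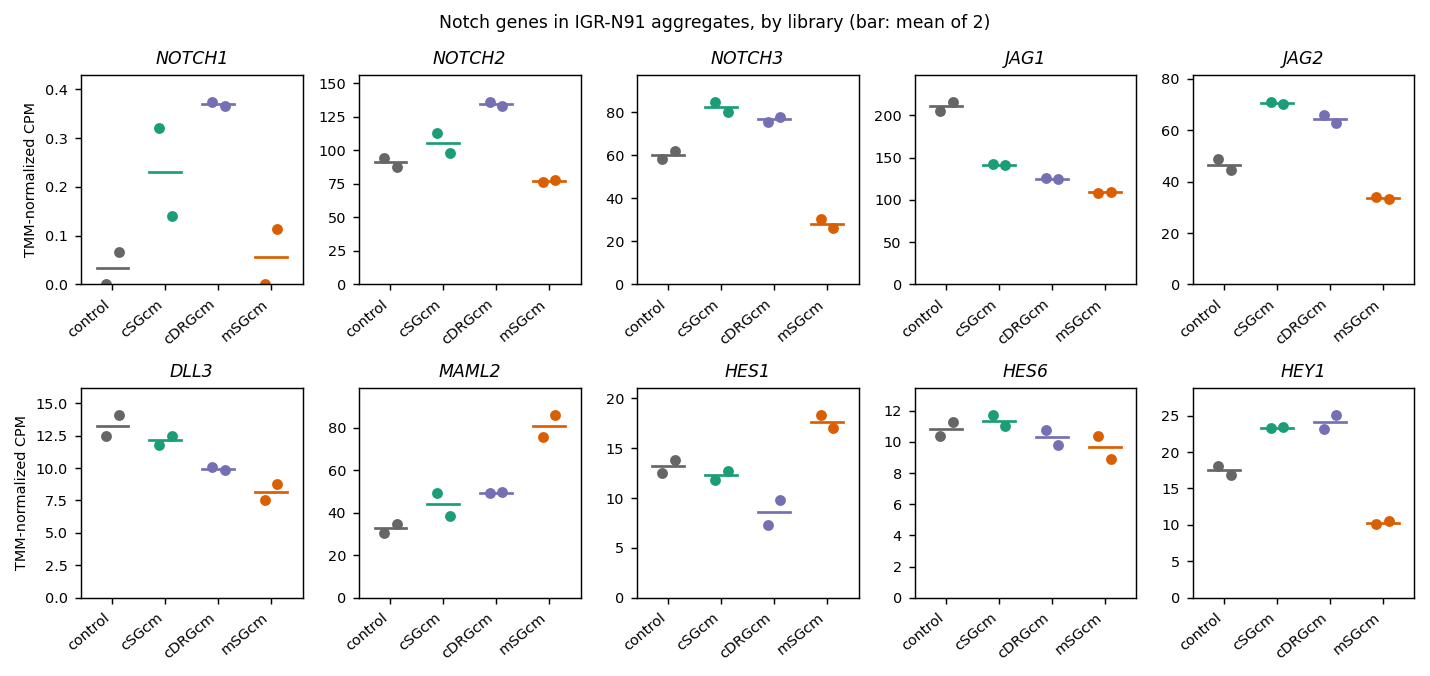
TMM-normalized CPM (y axis, from 0, a separate scale per panel) of the 10 Notch genes in each library, by medium (x axis). Points are libraries and bars the mean of 2. NOTCH2, NOTCH3, JAG2 and HEY1 are highest in the chick media and lowest in E15.5-mSGcm. JAG1 is highest in control, MAML2 is highest in E15.5-mSGcm, and the NOTCH1 axis ends below 0.5 CPM.

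NOTCH1 (ENSG00000148400, GRCh37 chr9:139388885-139440500, minus strand) had 0 and 1 reads in control, 4 and 2 in E8-cSGcm, 5 and 5 in E8-cDRGcm and 0 and 1 in E15.5-mSGcm. It did not pass the filter on low counts, and no fold change is given. A library with 0 reads still allows 3 counts, which is 0.229 CPM in control replicate 1 and 0.384 CPM in E15.5-mSGcm replicate 1, for counting error alone. The fourth receptor, NOTCH4, had 0 reads in all 8 libraries.

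NOTCH3 moved in opposite directions in chick and mouse media. NOTCH3 (ENSG00000074181, GRCh37 chr19:15269849-15311806, minus strand) encodes a receptor best known from vascular smooth muscle. Its libraries read 58.1 and 62.0 CPM in control, 84.8 and 80.0 in E8-cSGcm, 75.5 and 77.9 in E8-cDRGcm and 30.4 and 26.1 in E15.5-mSGcm. All 4 chick libraries lay above both controls and both mouse libraries below them, without overlap. In E15.5-mSGcm NOTCH3 fell, with a log2 fold change of -1.10 (SE 0.085, edgeR adjusted p = 3.58e-13), a level 2.14-fold lower than in control. In the chick media it was 1.37-fold higher with E8-cSGcm (log2 0.45, SE 0.067, adjusted p = 1.53e-06) and 1.28-fold higher with E8-cDRGcm (log2 0.35, SE 0.068, adjusted p = 3.92e-05), both short of 1.5-fold. Between the chick media the difference was -0.10 (95% interval -0.23 to 0.03), not past the threshold. Transcripts rich in G and C read lower in E15.5-mSGcm over the whole table, with a median log2 change of -0.18 in the quartile of genes with 54.8 to 86.4% G and C and of 0.09 in the quartile with 26.7 to 41.7%, and the NOTCH3 exons hold 62.4%. After GC content and exon length were corrected for in each library, NOTCH3 stood at -0.89 in E15.5-mSGcm (adjusted p = 1.3e-11) and was still called.

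NOTCH2 was highest in E8-cDRGcm. NOTCH2 (ENSG00000134250, GRCh37 chr1:120454176-120643366, minus strand) had 94.0 and 87.9 CPM in control, 113 and 97.6 in E8-cSGcm, 136 and 133 in E8-cDRGcm and 76.6 and 78.1 in E15.5-mSGcm. The 4 groups did not overlap, in the order E15.5-mSGcm, control, E8-cSGcm and E8-cDRGcm. Against control the log2 fold changes were 0.21 (SE 0.063, adjusted p = 0.00867), 0.57 (SE 0.062, adjusted p = 7.62e-10) and -0.23 (SE 0.069, adjusted p = 0.00735) in E8-cSGcm, E8-cDRGcm and E15.5-mSGcm, and none reached 1.5-fold. NOTCH2 has near-identical partial copies on chromosome 1, the NOTCH2NL genes, so reads could be split between them and its values are uncertain to that extent. NOTCH2NLC, the one copy that passed the filter, had 4 and 5 reads in control, 7 and 15 in E8-cSGcm, 10 and 18 in E8-cDRGcm and 4 and 6 in E15.5-mSGcm, and was called higher in E8-cDRGcm (log2 1.67, SE 0.57, adjusted p = 0.0141). That call was lost with DESeq2 (adjusted p = 0.134) and without control replicate 1, control replicate 2 or E8-cDRGcm replicate 2 (adjusted p = 0.0697, 0.0718 and 0.217 by edgeR). The other 3 copies were at 0 in all libraries.

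The receptor pool differed in size and make-up between media. The summed length-scaled level of the 3 receptors was 11.8 ± 0.04 CPM per kb in control (SD, n = 2), 15.1 ± 1.02 in E8-cSGcm, 16.2 ± 0.07 in E8-cDRGcm and 7.62 ± 0.25 in E15.5-mSGcm. NOTCH3 made up 54.0 ± 2.3% of it in control, 58.2 ± 1.6% in E8-cSGcm, 50.3 ± 0.91% in E8-cDRGcm and 39.3 ± 2.9% in E15.5-mSGcm. These sums and shares are descriptions without a test, and they rest on exon lengths and on CPM without the GC and length correction. That correction moved the E15.5-mSGcm log2 value against control from -1.10 to -0.89 for NOTCH3 and from -0.23 to -0.35 for NOTCH2. In E15.5-mSGcm NOTCH2 was the larger part, at 60.7 ± 2.9%.

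**Figure D2:**
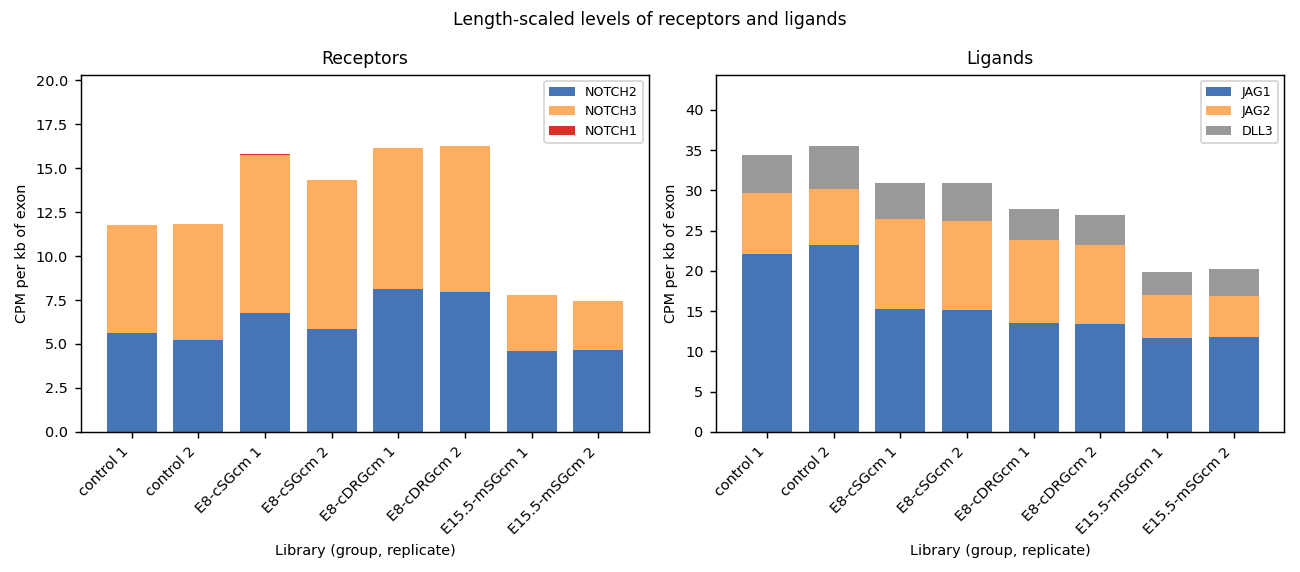
Length-scaled level (CPM per kb of exon, y axis from 0) of the receptors (left) and ligands (right) stacked for each of the 8 libraries (x axis). The receptor stack is tallest in E8-cDRGcm (16.2 and 16.3 CPM per kb) and lowest in E15.5-mSGcm (7.80 and 7.44), and the JAG1 part of the ligand stack is largest in control.

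JAG1 was lower than control in all 6 conditioned libraries. JAG1 (ENSG00000101384, GRCh37 chr20:10618332-10654647, minus strand) had 205 and 216 CPM in control, 142 and 141 in E8-cSGcm, 126 and 125 in E8-cDRGcm and 109 and 109 in E15.5-mSGcm. The 4 groups did not overlap, and the 2 libraries of each conditioned group lay close together. JAG1 fell in E8-cDRGcm (log2 -0.75, SE 0.052, adjusted p = 8.18e-15) and in E15.5-mSGcm (log2 -0.95, SE 0.056, adjusted p = 1.18e-16), where it was 1.93-fold lower. In E8-cSGcm it was 1.49-fold lower, with a log2 change of -0.57 (95% interval -0.68 to -0.47, adjusted p = 3.8e-11), just short of the 1.5-fold limit. Between media JAG1 was lower in E8-cDRGcm than in E8-cSGcm (log2 -0.18, SE 0.054, adjusted p = 0.0105) and lower in E15.5-mSGcm than in E8-cDRGcm (log2 -0.20, SE 0.057, adjusted p = 0.00309), both below 1.5-fold.

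JAG2 went the other way in the chick media. JAG2 (ENSG00000184916, GRCh37 chr14:105607319-105635161, minus strand) had 48.9 and 44.4 CPM in control, 71.0 and 70.3 in E8-cSGcm, 66.0 and 62.9 in E8-cDRGcm and 34.0 and 33.2 in E15.5-mSGcm. The chick libraries lay above control and the mouse libraries below it. JAG2 rose 1.52-fold in E8-cSGcm (log2 0.60, SE 0.070, adjusted p = 1.16e-08). It was 1.38-fold higher in E8-cDRGcm (log2 0.47, SE 0.070, adjusted p = 6.4e-07) and 1.39-fold lower in E15.5-mSGcm (log2 -0.47, SE 0.084, adjusted p = 2.17e-05), both short of 1.5-fold. The JAG2 exons hold 64.2% G and C, and after the GC and length correction its E15.5-mSGcm value was -0.20 (adjusted p = 0.0598) and its E8-cSGcm value 0.53, no longer called. Without control replicate 2 the E8-cSGcm value was also 0.53, and after thinning all libraries to the smallest total it was 0.56, both under 1.5-fold.

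DLL3 was lower in E15.5-mSGcm. DLL3 (ENSG00000090932, GRCh37 chr19:39989535-39999121, plus strand) had 12.5 and 14.1 CPM in control, 11.8 and 12.5 in E8-cSGcm, 10.1 and 9.82 in E8-cDRGcm and 7.56 and 8.80 in E15.5-mSGcm. It was 1.62-fold lower than control in E15.5-mSGcm (log2 -0.70, SE 0.15, adjusted p = 0.000397). The call was lost after the GC and length correction, at -0.43 (adjusted p = 0.024), for exons with 63.9% G and C. In E8-cDRGcm the log2 change was -0.42 (SE 0.13, adjusted p = 0.00825) and in E8-cSGcm -0.13 (95% interval -0.39 to 0.13).

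Of the summed length-scaled level of the 3 ligands, JAG1 held 64.7 ± 0.94% in control, 49.3 ± 0.34% in E8-cSGcm, 49.3 ± 0.55% in E8-cDRGcm and 58.3 ± 0.67% in E15.5-mSGcm. JAG2 held 20.9 ± 1.9%, 35.7 ± 0.25%, 36.8 ± 0.54% and 26.2 ± 0.77% in the same order. The sum itself went from 35.0 ± 0.76 CPM per kb in control to 30.9 ± 0.01, 27.4 ± 0.51 and 20.1 ± 0.29. These values are also without the GC and length correction. That correction moved the E15.5-mSGcm log2 value against control from -0.47 to -0.20 for JAG2 and from -0.70 to -0.43 for DLL3. For JAG1 it went from -0.95 to -0.99. Of the ligands outside the 10 genes, DLL1 had 0 reads in all 8 libraries, and DLL4 had at most 12.

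MAML2 was higher than control in all 6 conditioned libraries. MAML2 (ENSG00000184384, GRCh37 chr11:95709762-96076359, minus strand) had 30.4 and 34.8 CPM in control, 49.4 and 38.6 in E8-cSGcm, 49.1 and 49.5 in E8-cDRGcm and 75.6 and 85.8 in E15.5-mSGcm. The mouse libraries stood above all others, and the 2 chick groups overlapped. It rose 2.47-fold in E15.5-mSGcm (log2 1.31, SE 0.097, adjusted p = 5.01e-11) and 1.51-fold in E8-cDRGcm (log2 0.59, SE 0.097, adjusted p = 1.44e-05). In E8-cSGcm it was 1.34-fold higher (log2 0.42, SE 0.099, adjusted p = 0.00176). The E8-cDRGcm call lay at the fold limit and was lost after the GC and length correction, after thinning all libraries to the smallest total (both 0.57) and without control replicate 1 (0.50). MAML2 in E15.5-mSGcm was also 1.85-fold higher than in E8-cSGcm (adjusted p = 1.87e-08) and 1.64-fold higher than in E8-cDRGcm (adjusted p = 3.71e-07). Its exons hold 44.6% G and C, and the corrected E15.5-mSGcm value was 1.23. Of its relatives, MAML3 had 83.9 to 132 CPM over the 8 libraries and MAML1 at most 0.13, while RBPJ had 127 to 180 CPM.

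HES1 and HEY1, both classic targets, changed in different directions in E8-cDRGcm and in E15.5-mSGcm, with 1 of the 2 called in each. HES1 (ENSG00000114315, GRCh37 chr3:193853937-193856521, plus strand) had 12.5 and 13.9 CPM in control, 11.9 and 12.7 in E8-cSGcm, 7.33 and 9.82 in E8-cDRGcm and 18.3 and 17.0 in E15.5-mSGcm. The mouse libraries lay above all others and the E8-cDRGcm libraries below. HES1 fell in E8-cDRGcm (log2 -0.63, SE 0.14, adjusted p = 0.000313), 1.54-fold lower than control. In E15.5-mSGcm it was 1.33-fold higher (log2 0.41, SE 0.14, adjusted p = 0.0145), short of 1.5-fold and with an adjusted p of 0.127 by DESeq2. In E8-cSGcm the difference from control was -0.10 (95% interval -0.37 to 0.16). The E8-cDRGcm call was lost without control replicate 2 (-0.55) and without E8-cDRGcm replicate 1 (-0.43).

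HEY1 (ENSG00000164683, GRCh37 chr8:80674606-80680092, minus strand) followed NOTCH2, NOTCH3 and JAG2 in the sign of its change in each medium. It had 18.0 and 16.9 CPM in control, 23.2 and 23.4 in E8-cSGcm, 23.2 and 25.1 in E8-cDRGcm and 10.1 and 10.5 in E15.5-mSGcm. The chick libraries lay above control, overlapping each other, and the mouse libraries below control. HEY1 fell by 0.76 on the log2 scale in E15.5-mSGcm (SE 0.13, adjusted p = 1.49e-05), to a level 1.69-fold lower than control. It was 1.34-fold higher in E8-cSGcm (log2 0.42, SE 0.10, adjusted p = 0.00141) and 1.38-fold higher in E8-cDRGcm (log2 0.47, SE 0.10, adjusted p = 0.000178). Its exons are poor in G and C (45.2%), and the corrected E15.5-mSGcm value was -0.82.

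HES6 (ENSG00000144485, GRCh37 chr2:239146908-239149303, minus strand) was the one tested gene with no difference past the adjusted p threshold in any comparison. Its libraries ranged from 8.91 to 11.7 CPM. Against control the log2 changes were 0.06 (95% interval -0.21 to 0.34) in E8-cSGcm, -0.08 (-0.35 to 0.20) in E8-cDRGcm and -0.17 (-0.49 to 0.14) in E15.5-mSGcm, so changes of 1.5-fold lay outside all 3 intervals. The HES6 exons hold 68.8% G and C, and its sign turned with the GC and length correction in E15.5-mSGcm, to 0.16 against control (adjusted p = 0.461), from -0.24 to 0.23 against E8-cSGcm (adjusted p = 0.22) and from -0.10 to 0.26 against E8-cDRGcm (adjusted p = 0.163), and in E8-cSGcm against control, to -0.08 (adjusted p = 0.723). An antisense gene, ENSG00000225057, overlaps HES6 and had 11 to 32 reads. The strand option of the counting is not given in the sources used here, so reads of the pair may be mixed.

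**Figure D3:**
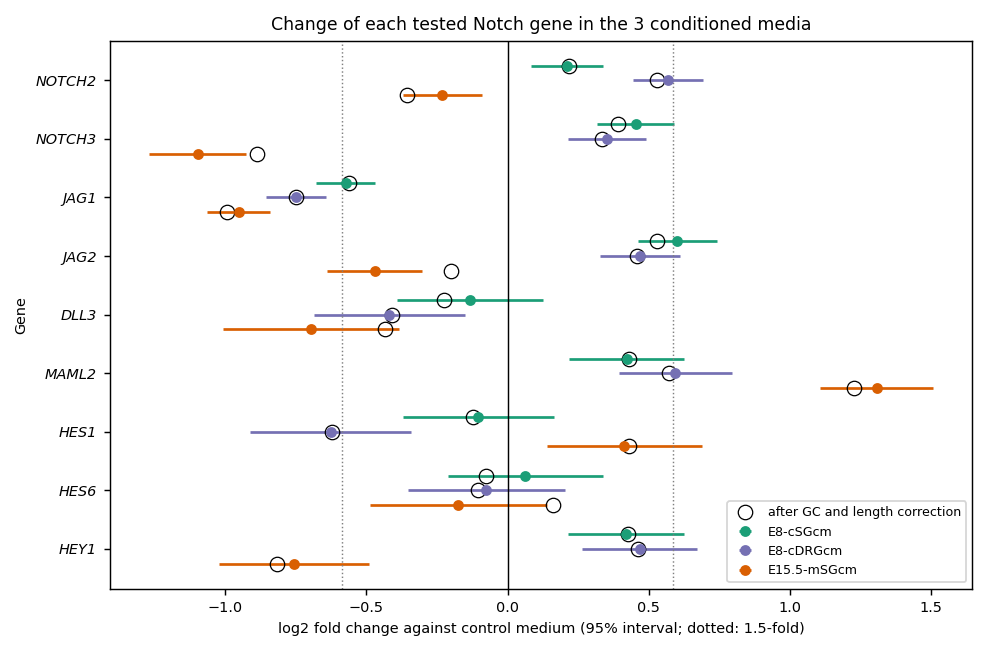
Log2 fold change against control medium (x axis) of the 9 tested Notch genes (y axis) in the 3 media, with 95% intervals; black rings are the values after the GC and length correction and dotted lines mark 1.5-fold. JAG1 lies left of 0 and MAML2 right of 0 in all 3 media. NOTCH2, NOTCH3, JAG2 and HEY1 lie right of 0 in the chick media and left of 0 in E15.5-mSGcm. The largest gaps between point and ring are those of HES6, JAG2 and DLL3 in E15.5-mSGcm.

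By count, 1 of the 9 tested genes was called in E8-cSGcm (JAG2, higher), beside 8.59% of all tested genes in either direction, 4.73% higher and 3.86% lower. In E8-cDRGcm 3 of 9 were called (MAML2 higher, JAG1 and HES1 lower), beside 20.7% in either direction, 9.81% higher and 10.9% lower. In E15.5-mSGcm 5 of 9 were called (MAML2 higher, and NOTCH3, JAG1, DLL3 and HEY1 lower), beside 13.9% in either direction, 6.65% higher and 7.27% lower. The E15.5-mSGcm count was 4 after the GC and length correction and 5 after thinning. At an adjusted p under 0.05 without a fold limit, 6, 8 and 8 of the 9 passed in E8-cSGcm, E8-cDRGcm and E15.5-mSGcm, beside 31.3, 49.5 and 37.8% of all tested genes. The median log2 change of the 9 genes was 0.21 in E8-cSGcm, 0.35 in E8-cDRGcm and -0.47 in E15.5-mSGcm, and the medians over all tested genes lay between -0.02 and 0.01. All 3 comparisons share the control libraries.

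The media also differed from each other in these genes. Between the chick media, E8-cDRGcm and E8-cSGcm, edgeR called 0 of 9, beside 7.49% of all tested genes (2.62% higher and 4.87% lower in E8-cDRGcm). DESeq2 called 0 as well, and 4 had an unadjusted p under 0.05. At the adjusted p alone 3 of 9 passed, beside 30.2% of all tested genes. NOTCH2 was higher in E8-cDRGcm (log2 0.36, SE 0.061, adjusted p = 1.95e-05), and JAG1, given above, and HES1 (log2 -0.52, SE 0.14, adjusted p = 0.005) were lower. Without E8-cDRGcm replicate 2, HES1 was called, as 1 of the 9.

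Against E8-cSGcm, 4 of 9 genes were called in E15.5-mSGcm, beside 22.3% of all tested genes (10.2% higher and 12.1% lower). At the adjusted p alone 8 of 9 passed, beside 49.8%. NOTCH3 was 2.93-fold lower in the mouse medium (log2 -1.55, SE 0.083, adjusted p = 4.37e-18), HEY1 2.26-fold lower (log2 -1.17, SE 0.13, adjusted p = 6.16e-10) and JAG2 2.1-fold lower (log2 -1.07, SE 0.080, adjusted p = 6.76e-14). MAML2, given above, was higher. Both are sympathetic ganglion media, and they differ in species and in embryonic day. As given above, the E15.5-mSGcm libraries also had lower totals, higher mitochondrial shares and lower readings of transcripts rich in G and C. The headers of the control columns name E8, and no control is named for E15.5. Whether the E15.5-mSGcm libraries formed a separate batch is not given. These differences cannot be told apart.

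Against E8-cDRGcm, 6 of 9 genes were called in E15.5-mSGcm, beside 26.2% of all tested genes (13.1% in each direction). At the adjusted p alone 7 of 9 passed, beside 52.6%. NOTCH3 (log2 -1.45), HEY1 (-1.22), JAG2 (-0.94) and NOTCH2 (-0.80) were lower in the mouse medium. HES1 (1.04) and MAML2 (0.71) were higher. HES1 was thus 2.05-fold higher in the mouse medium (SE 0.15 on the log2 scale, adjusted p = 1.67e-07), and its libraries did not overlap. The GC and length correction kept the counts of 4 and 6, with NOTCH3 at -1.28 against E8-cSGcm and -1.22 against E8-cDRGcm, and JAG2 at -0.73 and -0.66.

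Beyond the 10 genes, 80 other genes of the pathway were listed by role, and 60 of them passed the filter. Called counts of the 60 were 5 in E8-cSGcm (3 higher, 2 lower), 15 in E8-cDRGcm (7 higher, 8 lower) and 9 in E15.5-mSGcm (5 higher, 4 lower). Of all tested genes, 8.59, 20.7 and 13.9% were called in the same order, with the shares by direction given above. The medians of the 60 genes were -0.01, 0.03 and 0.10. In all, 22 were called in at least 1 medium, and the matching share of all tested genes was not counted. Counts at an unadjusted p under 0.05, given by role below, have no such share either. Of the 12 with the lowest adjusted p, 11 are named here.

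Among the sugar-adding enzymes that modify the receptors' extracellular repeats, 0 of 8 tested were called by edgeR in E8-cSGcm (0 by DESeq2, 4 at an unadjusted p under 0.05), and 2 in each of the other media. POGLUT1, which adds O-glucose, had 38.3 and 36.3 CPM in control, fell to 20.5 and 21.7 CPM in E8-cDRGcm (log2 -0.82, adjusted p = 1.76e-09) and rose to 57.1 and 65.7 CPM in E15.5-mSGcm (log2 0.72, adjusted p = 8.6e-09). GXYLT2, which extends that glucose with xylose, rose in E15.5-mSGcm (log2 1.07, adjusted p = 2.49e-11). RFNG, the Radical Fringe enzyme, rose in E8-cDRGcm (log2 0.69, adjusted p = 4.3e-06).

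Of the 9 proteases and subunits that cut the receptors, 3 were called in E8-cDRGcm. In each of E8-cSGcm and E15.5-mSGcm edgeR called 0, DESeq2 called 0, and 4 and 6 in that order had an unadjusted p under 0.05. FURIN, the convertase of the first cut, went from 27.6 and 27.4 CPM in control to 52.5 and 56.8 in E8-cDRGcm (log2 0.99, SE 0.082, adjusted p = 1.02e-12). APH1B, a subunit of gamma-secretase, fell in E8-cDRGcm (log2 -0.82, SE 0.11, adjusted p = 4.79e-08).

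Of 14 tested ubiquitin ligases and endocytic regulators, 2 were higher and 2 lower in E8-cDRGcm, and 3 were lower in E15.5-mSGcm. In E8-cSGcm edgeR and DESeq2 called 0, and 9 had an unadjusted p under 0.05. NEDD4, a ligase that lowers surface Notch, had 24.0 and 24.1 CPM in control and 58.2 and 53.5 in E8-cDRGcm (log2 1.21, SE 0.081, adjusted p = 2.43e-15). NEURL1B, a Neuralized ligase that acts on ligands, fell in both E8-cDRGcm (log2 -0.74, adjusted p = 9.59e-06) and E15.5-mSGcm (log2 -1.28, adjusted p = 2.78e-08). DTX3L, of the Deltex family, fell in E8-cDRGcm (log2 -0.62, adjusted p = 4.16e-07). The E8-cDRGcm calls of both genes lay under 1.5-fold without control replicate 2 (-0.54 for NEURL1B and -0.56 for DTX3L), and that of DTX3L also without E8-cDRGcm replicate 1 (-0.58).

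Of 20 tested genes of the nuclear complex and its co-repressors, 1 was called in E8-cSGcm, 2 in E8-cDRGcm and 1 in E15.5-mSGcm. TLE4, a Groucho co-repressor that HES proteins recruit, had 220 and 220 CPM in control and 138 and 138 in E8-cDRGcm (log2 -0.67, SE 0.051, adjusted p = 9.88e-14). KAT2A, a histone acetyltransferase, fell in E8-cSGcm (log2 -0.63, adjusted p = 8.22e-05) and E8-cDRGcm (log2 -0.93, adjusted p = 8.74e-08). After thinning its E8-cSGcm value was -0.58, under 1.5-fold. The gene called in E15.5-mSGcm was KAT2B, a related acetyltransferase, named here as the single member called (mean 3.86 CPM in control and 7.19 in E15.5-mSGcm, log2 0.91, adjusted p = 0.000896).

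Of 11 listed genes among the other HES and HEY factors, their relatives and NRARP, 4 were tested. In each medium 2 of the 4 were called, all higher. In both chick media these were NRARP and HES7, and in E15.5-mSGcm the HES relatives BHLHE40 and BHLHE41. NRARP and HES7 were not called in E15.5-mSGcm against control. Both had few reads in control and passed the filter on low counts through their chick libraries. Their direction there was thus partly set by the filter. HEYL, with more reads in control than in the conditioned libraries, did not pass it. DESeq2 called 0 of the 4 in E8-cSGcm, 1 in E8-cDRGcm and 2 in E15.5-mSGcm. BHLHE40, a repressor related to the HES factors, rose from 16.4 and 15.7 CPM in control to 39.5 and 44.1 in E15.5-mSGcm (log2 1.39, SE 0.11, adjusted p = 1.84e-13). The second gene called in E15.5-mSGcm was its relative BHLHE41 (log2 1.89, adjusted p = 0.00143). BHLHE41, and NRARP and HES7, the genes called in the chick media, were singled out after their values were seen.

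NRARP, a direct Notch target that limits the pathway, had 4 and 9 reads in control, 24 and 25 in E8-cSGcm, 16 and 13 in E8-cDRGcm and 2 and 2 in E15.5-mSGcm. It was called higher in E8-cSGcm (log2 1.98, SE 0.45, adjusted p = 0.000772) and in E8-cDRGcm (log2 1.21, SE 0.50, adjusted p = 0.0425). In E15.5-mSGcm it was called lower than in E8-cSGcm (log2 -2.87, adjusted p = 0.000147) and E8-cDRGcm (log2 -2.11, adjusted p = 0.00831), and its difference from control did not pass (adjusted p = 0.402). DESeq2 gave no adjusted p for E8-cSGcm against control, so that call was not checked by it. At these low counts the E8-cDRGcm call was lost with DESeq2 (adjusted p = 0.226), with the filter at 1 count in total (adjusted p = 0.0754) and without control replicate 1, E8-cSGcm replicate 2 or either E8-cDRGcm library (adjusted p = 0.0507 to 0.26 by edgeR). The contrast with E8-cDRGcm was lost with DESeq2 (adjusted p = 0.0695) and without E15.5-mSGcm replicate 2 (adjusted p = 0.0683). HES7, a HES repressor known from the segmentation clock, had 2 and 2 reads in control, 10 and 17 in E8-cSGcm, 12 and 20 in E8-cDRGcm and 3 and 4 in E15.5-mSGcm. It was called higher in E8-cSGcm (log2 2.75, SE 0.67, adjusted p = 0.00156) and in E8-cDRGcm (log2 2.98, SE 0.65, adjusted p = 0.000207), where DESeq2 called it too (adjusted p = 0.0115). For E8-cSGcm DESeq2 gave no adjusted p. In E15.5-mSGcm the log2 value was 1.51 (adjusted p = 0.19). HEYL, chosen likewise, had 8 and 16 reads in control and 1 to 4 in the conditioned libraries, and did not pass the filter. HES5 was at 0 in all libraries.

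**Figure D4:**
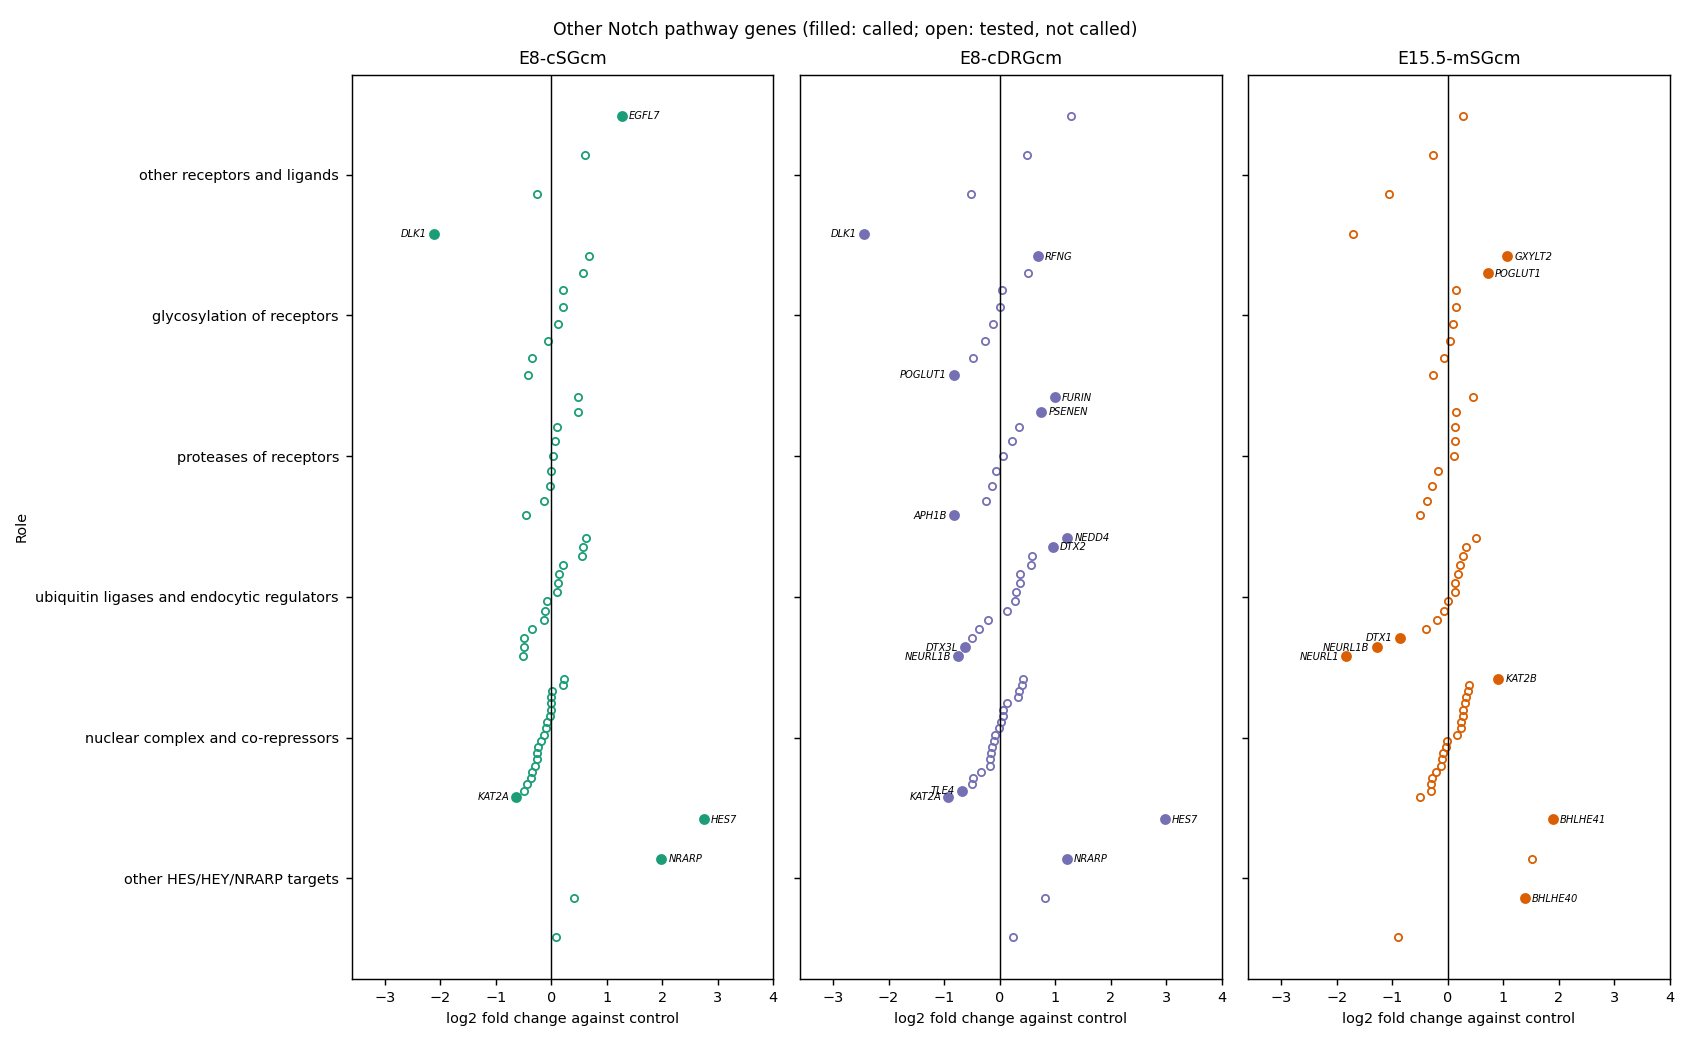
Log2 fold change against control medium (x axis) of 59 of the 60 other Notch pathway genes that passed the filter, by role (y axis), in each medium. Filled and named points were called (5, 14 and 8 of those plotted in E8-cSGcm, E8-cDRGcm and E15.5-mSGcm) and open points were tested and not called; NEDD4 and FURIN lie among the called genes on the right in E8-cDRGcm, and BHLHE40 in E15.5-mSGcm.

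For each Notch gene, the gene whose log2 CPM ran most closely with it over the 8 libraries was looked up among 11411 genes with a mean of at least 5 CPM. These were LIX1L for NOTCH2 (Pearson r 0.994), ESPL1 for NOTCH3 (0.997), DOK4 for JAG1 (0.994), GPR153 for JAG2 (0.996), VWA1 for DLL3 (0.984), PLCL1 for MAML2 (0.991), ENSG00000251216 for HES1 (0.984), ZNF559 for HES6 (0.955) and SSBP4 for HEY1 (0.996). The 8 libraries form 4 groups, so each r mainly describes 4 group means, and it is the highest of many values.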

How the data were processed

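Total RNA of 8 aggregate libraries (50 ng, SMARTer Stranded Pico kit, 75 bp single reads, NextSeq500) had been sequenced by the authors. Per the submitters' processing notes, bcl2fastq 2.17.1.14, cutadapt 1.9.1, TopHat2 2.1.0 and HTSeq 0.11.3 were used. The authors deposited raw counts per Ensembl gene, without normalization or filter. The study's methods name hg19 and the submitters' notes hg38, and the table holds no coordinates, so gene positions, symbols, exon lengths and GC content came from GENCODE 44 lifted to GRCh37, and promoters from RefSeq on GRCh38.p14. The 2 sets of coordinates were not mixed. The strand option of the counting is not given in the sources used here. Groups came from the labels.

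Counts were TMM-normalized and tested in edgeR 4.0.16 (R 4.3.3; filterByExpr, robust quasi-likelihood fit of all 8 libraries in 1 model, Benjamini-Hochberg over 16680 genes). The study used DESeq2, which is an alternative here (1.42.0). The GC and length correction fitted splines with 5 degrees of freedom to each library. Replicates differed by more than counting noise (chi-square per gene 1.78 to 3.64). The edgeR step was tested on simulated counts. Named were the 10 genes, their closest gene each, overlapping genes with at least 10 counts, NOTCH2 copies, and at most 12 other pathway genes called in at least 1 medium, by lowest adjusted p, 1 of which is not reported here. The genes and lists were chosen with earlier results of these data known. Alternatives were DESeq2, RLE factors, a fit of the 4 libraries of a comparison, a looser and a stricter filter (1 count in total, 10 in each library), no fold limit, a replicate block, thinning to 7930765 counts, the GC and length correction, and each library left out. Figures used matplotlib 3.10.9.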

Additional observations from a re-analysis of the deposited data

Results flagged for a closer look

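In 5 Notch genes the change against control had opposite signs in E15.5-mSGcm and in a chick medium, both with an adjusted p under 0.05. The direct contrast between the 2 media was also called by edgeR. How many of all tested genes meet both conditions was not counted. The direct contrasts alone called 22.3% of all tested genes against E8-cSGcm and 26.2% against E8-cDRGcm. NOTCH3, a receptor, was lower in E15.5-mSGcm than in E8-cSGcm by a log2 difference of -1.55 (adjusted p = 4.37e-18) and than in E8-cDRGcm by -1.45 (adjusted p = 1.95e-17). HEY1 differed by -1.17 (adjusted p = 6.16e-10) and -1.22 (adjusted p = 1.32e-10), and JAG2 by -1.07 (adjusted p = 6.76e-14) and -0.94 (adjusted p = 1.63e-12), in the same order. NOTCH2 was lower in E15.5-mSGcm than in E8-cDRGcm by -0.80 (adjusted p = 8.08e-13). HES1 was higher in E15.5-mSGcm than in E8-cDRGcm by 1.04 (adjusted p = 1.67e-07). After the GC and length correction, JAG2 in E15.5-mSGcm no longer passed against control (log2 -0.20, edgeR adjusted p = 0.0598). With DESeq2, HES1 in E15.5-mSGcm did not pass against control, as given above. In all of these comparisons both E15.5-mSGcm libraries lay on the other side of the 2 control libraries from both chick libraries. The genes were picked by these opposite changes, so the separation adds no support. How many of all tested genes show it was not counted. No group had the 4 samples that a search for a library far from the others needs.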

How the results depend on the processing

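With an adjusted p under 0.05 and no fold limit, more genes passed because the fold limit was dropped. Against control the Notch genes passing rose from 1 to 6 in E8-cSGcm, from 3 to 8 in E8-cDRGcm and from 5 to 8 in E15.5-mSGcm. They rose from 0 to 3 in E8-cDRGcm against E8-cSGcm and from 4 to 8 in E15.5-mSGcm against E8-cSGcm. The other pathway genes passing in at least 1 medium rose from 22 to 53. The matching share of all tested genes was not counted. In the single media 31.3, 49.5 and 37.8% of all tested genes passed against control. The E8-cSGcm count became 0 after the GC and length correction and 0 after that correction with the replicate block, since JAG2 went under the fold limit. Leaving out 1 library gave 0 to 2 in E8-cSGcm (0 without control replicate 2, 2 without control replicate 1 or E8-cSGcm replicate 2), and 0 to 1 between the chick media. The other counts stayed within 1.5 times, with 2 or 3 in E8-cDRGcm, 4 or 5 in E15.5-mSGcm, 6 or 7 in E15.5-mSGcm against E8-cDRGcm and 16 to 26 other pathway genes. The titles number the libraries 1 and 2 and do not say whether same-numbered libraries are paired. Their deviations correlated at -0.04 to 0.04, which with 2 libraries per group cannot exclude a pairing. The replicate block alone left each Notch count as it was, at 1, 3, 5, 0, 4 and 6. No called value of a Notch gene changed sign under these alternatives. With 2 libraries per group, 1 library can decide a value near 1.5-fold, and the E15.5-mSGcm libraries had the fewest counts.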
